A study of Mus musculus with 24 samples.

Results

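Small structural RNAs of the nucleus, nucleolus and cytoplasm were followed in RNA of mouse testis germ cells with a knock-in at Ddx4. Ddx4 encodes an RNA helicase found in germ granules. Genes were chosen by symbol: box C/D RNAs (Snord), box H/ACA RNAs (Snora), Cajal body RNAs (Scarna), the U RNAs (Rnu), 7SK and 7SL (Rn7s), Y RNAs (Rny), and the RNAs of RNase MRP (Rmrp), RNase P (Rpph1) and telomerase (Terc). Of the 55401 genes in the tables of the CB libraries, 182 have such a symbol, and the 37 with at least 10 expected counts summed over the 6 CB libraries are described here. CB RNA came from germ cells labelled DDX4 heterozygous knock-in or DDX4 homozygous knock-in (n = 3 libraries each). The libraries kept strand and were made from total CB RNA with neither enrichment of polyadenylated RNA nor removal of ribosomal RNA. The labels do not spell out CB. The labels list no wild-type CB library, and the heterozygous controls carry the knock-in allele too. For reference, round spermatid RNA of WT, heterozygous and homozygous knock-in mice was used (n = 2 libraries each), made with a different kit. All cells came from testes by an enzymatic digestion in steps. Libraries are numbered in the labels without a statement that each is a separate animal, and p-values therefore reflect the spread between libraries, part or all of which may be technical.

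These RNAs work as the core of ribonucleoprotein particles. Box C/D and box H/ACA RNAs pair with other RNAs and direct 2′-O-methylation and pseudouridylation, mostly of ribosomal RNA in the nucleolus, while Cajal body RNAs guide the same changes on spliceosomal RNAs. U3 and RNase MRP act in the cleavage of the ribosomal RNA precursor, RNase P cuts the leader from transfer RNA precursors, U1 and U2 recognise splice sites and branch points, 7SK holds the elongation factor P-TEFb inactive, and 7SL is the scaffold of the signal recognition particle. Most guide RNAs are cut from introns of other genes, whereas 7SK, 7SL, Rmrp and Rpph1 have promoters of their own read by RNA polymerase III.

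The RNAs that were seen were mostly the long ones. The 37 genes that reached 10 counts had a median annotated length of 215 bases (range 104 to 414), against 94 bases (62 to 423) for the 145 that did not. None of the 91 genes of up to 100 bases reached the minimum, 82 of them without a count. Of the 57 genes of 101 to 150 bases 7 reached it, as did 7 of 9 from 151 to 200 bases, all 13 from 201 to 250 bases and 10 of 12 above that. The 12 longest held 92632.6 counts, against 15 counts on the 91 shortest. Other genes of the tables showed the same order: 0% of those of up to 100 bases, 0.4% from 101 to 150, 3% from 151 to 200, 2.9% from 201 to 250 and 14.7% from 251 to 500 bases reached 10 counts. By class, the genes kept were 5 of 99 box C/D, 4 of 42 box H/ACA, 4 of 9 Cajal body, 10 of 11 grouped as U3, 8 of 11 spliceosomal or other U RNA genes, 2 of 3 7SL genes, and the genes of 7SK, RNase MRP (2 gene IDs) and RNase P. The gene of the U3 group that was not kept was Rnu73b, of 71 bases and without a count. It was not treated as a copy of U3 below. The short guide RNAs that make up most of the box C/D class had too few counts to be compared, and the results below concern long RNAs.

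**Figure D1:**
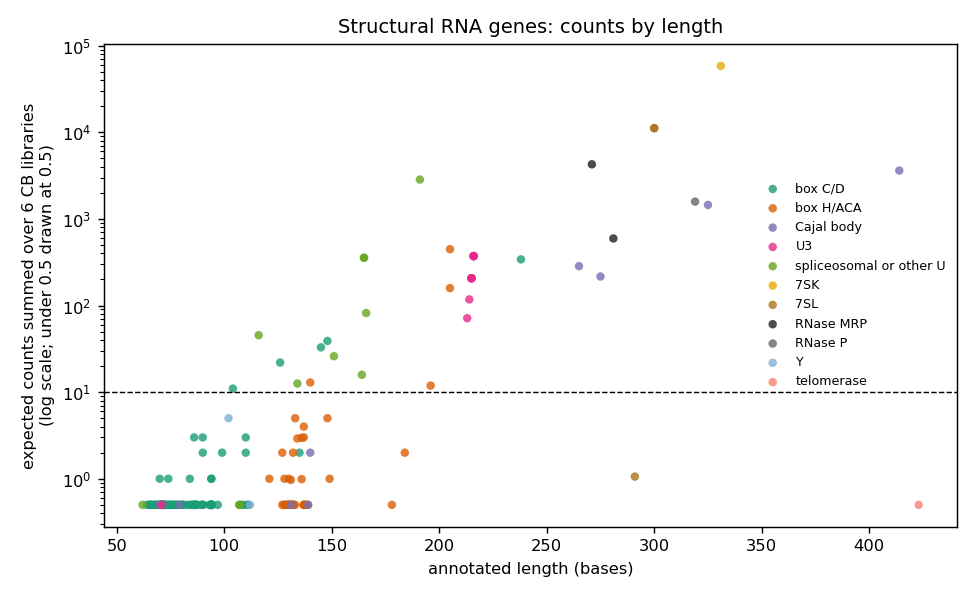
Expected counts summed over the 6 CB libraries (vertical, log scale) against annotated length in bases (horizontal) for the 182 genes, coloured by class. Genes with few or no counts are drawn at the lowest level and the dashed line is the minimum of 10 counts. Points climb with length, 7SK stands highest with 58314 counts, and Terc lies at the floor although it is the longest.

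Among genes over 250 bases, Terc and Rn7s6 stayed below the minimum. Terc, the template RNA of telomerase at 423 bases, had 0 counts in all 6 CB libraries, and a count of 0 allows up to 3 counts in 91.6 M, or 0.0327 CPM (counts scaled to library size). Rn7s6, another 7SL gene of 291 bases, had 1.06 counts summed over the CB libraries. Just inside the minimum lay Snord13 with 11 counts, Snora74a with 11.9, Rnu11 with 12.6, Snora7a with 12.9 and Rnu1a1 with 15.8, while just outside it were Rny3, Snora57 and Snora9 with 5 counts each and Snora21 with 4.

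Copies cannot be told apart in these tables. Of the 37 genes, 12 had counts identical to another in all 6 CB libraries, in 4 profiles: Rn7s1 with Rn7s2, Rnu1b1 with Rnu1b2, and 2 sets of 4 IDs that share the symbols Rnu3b1 to Rnu3b4. The 2 IDs of Rnu3a share a symbol, and whether they lie at the same place was not checked, since positions were matched by symbol. Their counts were divided unevenly. The 214-base ID had 30.6, 39 and 21 counts in heterozygous libraries 1 to 3 and 27, 0 and 0 in homozygous libraries 1 to 3. The 213-base ID had 6.43, 0 and 0.01, then 0, 39 and 26. In 5 of the 6 libraries a single ID held nearly all counts of the pair. For this reason copies were also joined before the test, which gave 21 RNAs, 14 of them abundant enough to be tested; this step was added after the data had been seen.

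The CB libraries held 14.2 to 16.5 M counts and the round spermatid libraries 15.3 to 24.9 M. Ddx4 itself was at 278, 312 and 365 CPM (scaled by TMM here and below) in heterozygous CB libraries 1 to 3 and 303, 306 and 244 in homozygous libraries 1 to 3, a log2 difference of -0.16 (SE 0.13, edgeR adjusted p = 0.649). In round spermatids it was at 443 and 521 in WT, 406 and 403 in heterozygous and 121 and 130 CPM in homozygous libraries (log2 -1.69, homozygous against heterozygous, adjusted p = 0.0138). Heterozygous CB library 1 stood apart: its counts differed from libraries 2 and 3 by a chi-square over degrees of freedom of 28.6 and 28.5, against 2.76 to 9.09 for the other pairs of a group. Mean fragment length, read from the deposited effective lengths, was 219, 229 and 234 bases in heterozygous libraries 1 to 3 and 236, 218 and 242 bases in the homozygous ones. Markers of round spermatids, all 7 of 7 detected, summed to 920 to 1394 CPM in heterozygous and 732 to 765 CPM in homozygous CB libraries, and Prm1 and Spaca1 among them passed the test as lower. The 6 Leydig markers summed to 73 to 127 against 140 to 151 CPM and the 6 immune markers to 5.05 to 9.8 against 10.4 to 12.7 CPM, with Cd74 called higher. Among the Leydig markers Insl3 had means of 52.1 and 85.5 CPM, while Star (26 and 26.9) and Cyp17a1 (15.9 and 16.6) were nearly level. Sums overlapped for Sertoli markers (68.9 to 126 against 80.8 to 86.3 CPM) and pachytene spermatocyte markers (1009 to 1615 against 1476 to 1530 CPM). They also overlapped for peritubular and vascular, erythroid and spermatogonial markers. No listed marker of any cell type was at 0 in every CB library, and the part of these differences in the results was not tested. In bulk RNA, fewer cells of a type and less RNA per cell cannot be told apart.

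The 37 genes took a small part of each CB library. They held 0.135%, 0.116% and 0.103% of counts in heterozygous libraries 1 to 3 and 0.0959%, 0.107% and 0.1% in the homozygous ones, so that the groups overlapped (0.118% ± 0.0161 against 0.101% ± 0.00558, SD, n = 3). 7SK alone made up 56.1 to 60.3% of these counts and 7SL 19.5 to 25.2%. In TPM, which divide by a length adjusted for fragment size, the same genes took 3.79% ± 0.517 in heterozygous and 3.66% ± 0.0532 in homozygous libraries (SD, n = 3). Genes of up to 500 bases outside the set took 0.226%, 0.184% and 0.169% of counts in heterozygous and 0.149%, 0.166% and 0.146% in homozygous libraries, without overlap.

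Order among the RNAs depended on the length used and on whether copies were summed. In CPM per 100 bases of annotated length, averaged over heterozygous CB libraries, Rn7sk stood at 208, each of Rn7s1 and Rn7s2 at 39.5, the 271-base Rmrp ID at 21.6, Rnu2-10 (U2) at 18.2, Scarna2 at 11.7, Scarna10 and Rpph1 at 5.93 and each of Rnu1b1 and Rnu1b2 (U1) at 2.84. In TPM the U RNAs stood higher: 7SK was at 12640 ± 265, 7SL at 5769 ± 370, U2 at 5464 ± 2719, U1 at 4389 ± 2019, U3 at 2890 ± 652 and Rmrp at 2261 ± 258 in heterozygous libraries (SD, n = 3, copies summed). As single IDs, Rnu2-10 was at 5464 TPM, each of Rn7s1 and Rn7s2 at 2885 and the 271-base Rmrp ID at 1995. Each of Rnu1b1 and Rnu1b2 was at 1924 and Scarna2 at 518 TPM. 7SK led on either scale, and in TPM the means of 7SL, U2 and U1 lay within the spread of U2 and U1. The deposited effective length, the number of positions left for a fragment, averaged 107.6 bases for 7SK but 10.8 for U2 and 3.9 for Rnu1b1. It was 0 for Snord13, Snord22 and Rnu5g, which carry a TPM of 0 although they had counts.

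Between genotypes, most of these RNAs had lower counts in homozygous than in heterozygous CB libraries, and few differences passed the test. Of the 37 genes, 25 passed the filter on low counts. The 271-base ID of Rmrp (ENSMUSG00000088088) was called lower, none was called higher, and 23 of the 25 log2 differences were below 0. Over all 19335 genes tested, 1.72% were called, 0.559% lower and 1.16% higher, and 50.7% had a log2 difference below 0. The median over the 25 genes was -0.52, against -0.0048 over all genes. An unadjusted p under 0.05 with a lower level was seen for 10 of the 25, against 6.87% of all genes, and every homozygous library lay below every heterozygous one for 5, against 9.78%. These counts cover copies with shared reads and genes that passed a filter, and are not counts over all 37. With copies joined, none of 14 RNAs was called (1.72% of 19324 genes were), 6 had an unadjusted p under 0.05, 13 were below 0 and 6 had homozygous libraries all below heterozygous ones (9.77% of genes).

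**Figure D2:**
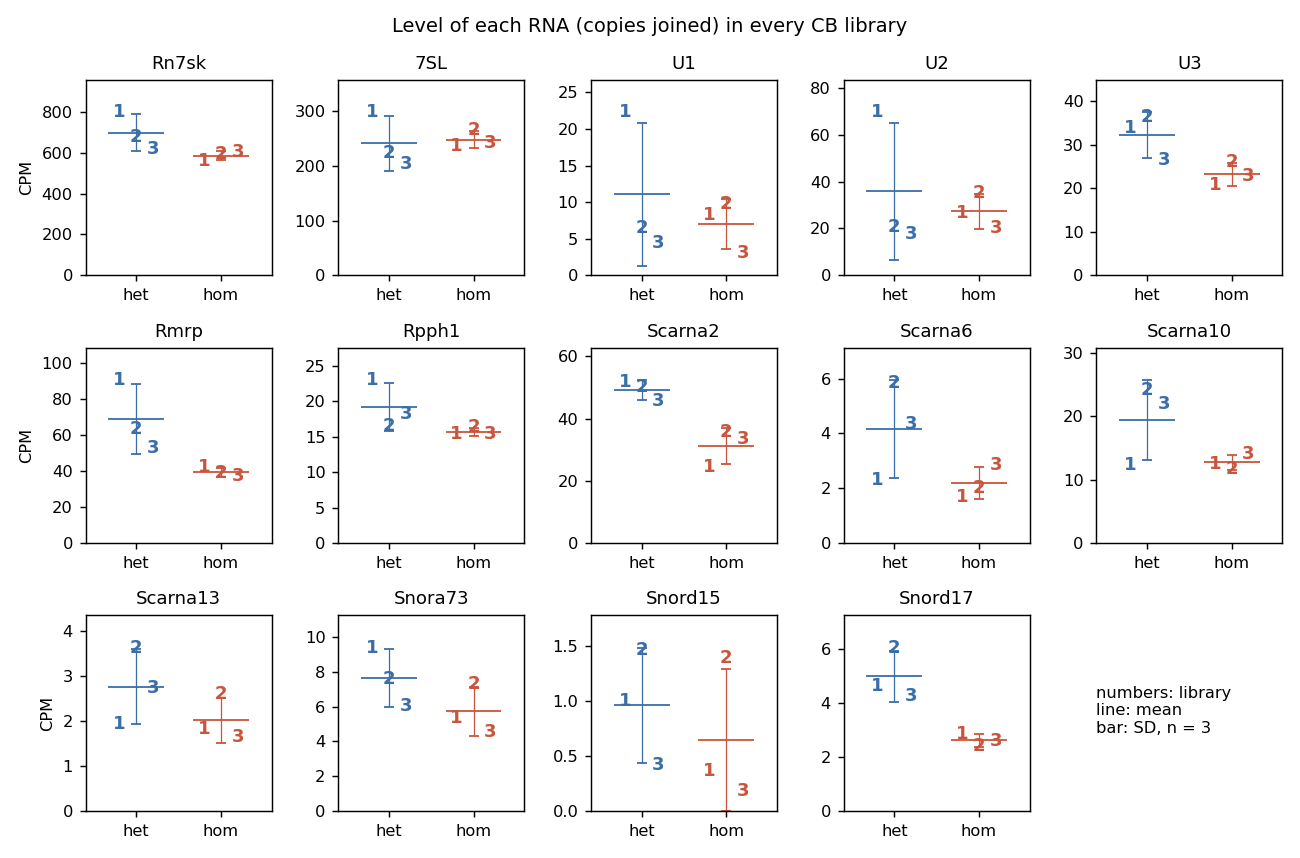
Level in CPM (vertical, each panel starting at 0) of the 14 tested RNAs, copies joined, in heterozygous (blue) and homozygous (red) CB libraries. Numerals are library numbers, lines are means and bars are SD, n = 3. Homozygous libraries lie below all heterozygous ones for Rn7sk, U3, Rmrp, Rpph1, Scarna2 and Snord17, and library 1 is far above the other heterozygous libraries for U1 and U2.

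Rmrp, the RNA of RNase MRP (chromosome 4, 43492785 to 43493059, RefSeq on GRCm38.p6, with no other gene spanning it), had the lowest adjusted p of the set. Its 271-base ID was at 76.7, 52.5 and 50 CPM in heterozygous libraries 1 to 3 and at 36.7, 37 and 32.6 CPM in homozygous ones. All 3 homozygous libraries were below the lowest heterozygous one, and they varied less among themselves. In edgeR this was a log2 difference of -0.75 with an SE of 0.16 and an adjusted p of 0.0484. The 281-base ID carries the same symbol. Positions were matched by symbol, so whether the IDs lie at the same place was not checked. This ID was at 14, 10.7 and 3.08 against 5.46, 1.96 and 4.8 CPM, and there the groups overlapped (log2 -1.18, SE 0.48, adjusted p = 0.292). Joined, the IDs were at 69 ± 19.5 and 39.5 ± 2.41 CPM (SD, n = 3), with a log2 difference of -0.81 (SE 0.18, adjusted p = 0.0519). The call on the 271-base ID was lost without heterozygous library 2 (adjusted p = 0.0762) or 3 (0.0599) and without homozygous library 1 (0.2), 2 (0.183) or 3 (0.229), and was kept without heterozygous library 1 (log2 -0.54, adjusted p = 0.00312). DESeq2, which called 3.09% of genes, gave an adjusted p of 0.00151.

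Rpph1, the RNA of RNase P, shares most protein subunits with Rmrp. It lies at chromosome 14, 50807447 to 50807771. Its levels were 23, 16.5 and 18.1 CPM in heterozygous and 15.3, 16.4 and 15.4 CPM in homozygous libraries. The groups did not overlap, but homozygous library 2 lay just under heterozygous library 2. Its log2 difference was -0.29 (SE 0.15, adjusted p = 0.396 with copies joined).

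U3, the box C/D RNA that base-pairs with the ribosomal RNA precursor, was read from 10 gene IDs. Together they were at 33.9, 36.4 and 26.4 CPM in heterozygous and 20.8, 25.9 and 22.7 CPM in homozygous libraries. The nearest libraries of the groups, heterozygous 3 and homozygous 2, were almost level. The log2 difference was -0.48 (SE 0.15, unadjusted p = 0.00792, adjusted p = 0.15, edgeR).

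Snord17 is a long box C/D RNA. It was at 4.66, 6.05 and 4.27 CPM in heterozygous and 2.85, 2.4 and 2.61 CPM in homozygous libraries, from 38 to 87 counts each. All homozygous libraries were lower (log2 -0.93, SE 0.21, adjusted p = 0.0635, edgeR with copies joined), and DESeq2 called it (adjusted p = 0.033). Snord15a and Snord15b, box C/D RNAs of the Rps3 gene, had 1 to 11 counts per library each and did not pass the filter singly. Joined they were at 0.961 ± 0.522 and 0.644 ± 0.65 CPM (SD, n = 3), a log2 difference of -0.58 whose 95% interval reached from -1.9 to 0.73. Snora73a and Snora73b, box H/ACA RNAs that act in ribosomal RNA processing, were together at 9.39, 7.58 and 6.03 against 5.34, 7.31 and 4.56 CPM, with overlap (log2 -0.42, SE 0.23, adjusted p = 0.438).

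Of the remaining guide RNAs, Snora7a had 2.95, 4.99 and 3.99 counts in heterozygous and 0, 1 and 0 counts in homozygous libraries. Snora74a had 0 to 1.95 against 0.95 to 5 counts, Snord22 2 to 3.99 against 2 to 5.99, and Snord13 0 to 4 in both. None of these passed the filter, and in a fit without a filter none was called (Snora7a: unadjusted p = 0.02, adjusted p = 0.319; adjusted p = 0.762, 0.921 and 0.921 for the others, edgeR).

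Cajal body RNAs, the guides for spliceosomal RNAs, were lower in mean in homozygous libraries for all 4 members. Scarna2, which the tables list at 414 bases, was at 51.9, 50 and 45.6 CPM in heterozygous and 24.6, 35.7 and 33.3 CPM in homozygous libraries. All homozygous libraries were lower, and homozygous library 1 was the lowest of them. Its log2 difference was -0.66 (SE 0.14, adjusted p = 0.0531, edgeR with copies joined), and DESeq2 called it (adjusted p = 0.00403). Scarna10 was at 12.3, 24.1 and 21.9 against 12.4, 11.7 and 14 CPM, Scarna6 at 2.29, 5.84 and 4.34 against 1.7, 2.02 and 2.85 CPM, and Scarna13 at 1.94, 3.62 and 2.73 against 1.82, 2.58 and 1.64 CPM. In these 3 heterozygous library 1 was the lowest of its group and lay among the homozygous libraries. Their log2 differences were -0.61 (adjusted p = 0.23), -0.92 (0.239) and -0.46 (0.547, edgeR).

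The spliceosomal RNAs were highest in heterozygous library 1 and did not separate by genotype. U2 was at 69.6 CPM there, 20.5 and 17.7 in heterozygous libraries 2 and 3, and 26.8, 35.1 and 20 in homozygous ones. U1 was at 22.3, then 6.47 and 4.41, against 8.19, 9.71 and 3.1 CPM. For both, the other heterozygous libraries lay at or below most homozygous ones. Log2 differences were -0.39 for U2 (SE 0.44, adjusted p = 0.755) and -0.66 for U1 (SE 0.55, adjusted p = 0.654), and without heterozygous library 1 they turned to 0.51 and 0.35 (adjusted p = 0.125 and 0.621, edgeR). Rnu5g (U5) had 26.4 counts in that library and 1.17 to 9.82 in the others. Rnu12 (U12, of the minor spliceosome) had 17 counts there and 0 to 3 elsewhere, and Rnu11 had 4 counts there and 1 to 3 elsewhere. That library also had the second shortest fragments of the 6, and homozygous library 2, with the shortest, had the highest U1 and U2 of its group. The part of fragment length in these values was not tested beyond entering it as a covariate, added after the data had been seen, which gave 0.09 for U2 and -0.09 for U1.

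**Figure D3:**
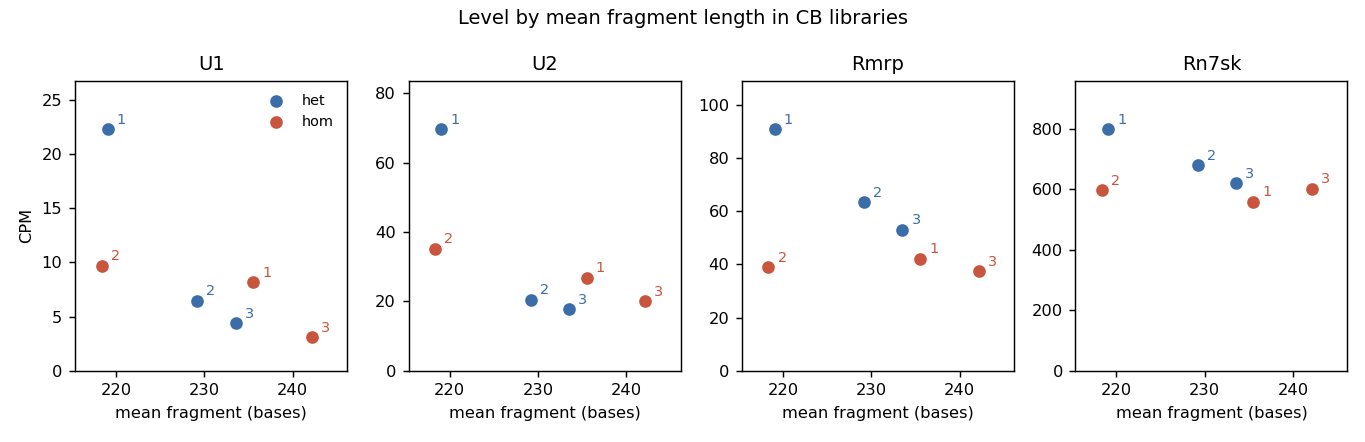
Level in CPM (vertical, from 0) of U1, U2, Rmrp and Rn7sk against the mean fragment length of the library in bases (horizontal) for heterozygous (blue) and homozygous (red) CB libraries, numbered. U1 and U2 are highest in heterozygous library 1 with fragments of 219 bases. Rmrp in homozygous library 2, with fragments of 218 bases, stays with the other homozygous libraries.

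7SK (Rn7sk, chromosome 9, 78175302 to 78175633) was at 798, 679 and 620 CPM in heterozygous and 559, 596 and 602 CPM in homozygous libraries. The groups were separate, by less than the range of either (log2 -0.26, SE 0.12, adjusted p = 0.364). 7SL (Rn7s1 and Rn7s2, chromosome 12) was at 298, 223 and 203 against 236, 265 and 242 CPM, fully overlapping. Its log2 difference was 0.04 and its 95% interval reached from -0.24 to 0.32 (adjusted p = 0.94). 7SL was the only tested RNA of the 14 with a difference above 0.

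Short genes outside the set were also lower in homozygous libraries. The 303 tested genes of up to 500 bases that are not members had a median log2 difference of -0.24, 67% were below 0, 1.65% were called lower and 15.5% had all homozygous libraries below all heterozygous ones. By length their medians were -0.56 from 151 to 200 bases (15 genes), 0.01 from 201 to 250 (4 genes), -0.37 from 251 to 300 (13 genes) and -0.22 from 301 to 500 bases (269 genes). A trend of the log2 difference on effective length was fitted over all tested genes, the members included. It is therefore not a background independent of them. With this trend removed, the median of the 25 members was -0.06 and 15 were below 0. With copies joined, Rmrp was then at -0.46, Scarna2 at -0.41, Snord17 at -0.53, U3 at -0.04, 7SK at 0.04 and 7SL at 0.36, none was called (1.53% of 19324 genes were) and 4 had an unadjusted p under 0.05. The share of all genes under that p in this fit was not counted.

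Values were also compared in TPM. In limma on log2(TPM + 1), an alternative added after the data had been seen, all genes had a median difference of 0.12 and the 14 RNAs of -0.19. None of the 14 was called (1.42% of 19324 genes were), 3 had an unadjusted p under 0.05 and 11 were below 0. Rmrp was at 2532, 2233 and 2018 TPM in heterozygous and 1692, 1337 and 1625 TPM in homozygous libraries (log2 -0.54, adjusted p = 0.0959). Scarna2 was at 490, 547 and 518 against 296, 399 and 416 TPM (log2 -0.50, adjusted p = 0.116), and Snord17 at 210, 369 and 278 against 199, 135 and 204 TPM (log2 -0.65, adjusted p = 0.174). These 3 kept homozygous libraries all below heterozygous ones, while 7SK (12648, 12897 and 12368 against 11862, 11236 and 13434 TPM), U3 and Rpph1 overlapped on this scale. 7SL was at 6179, 5671 and 5458 against 6747, 6591 and 7377 TPM, all homozygous libraries higher (log2 0.26, adjusted p = 0.373). The share of all genes whose groups separate in TPM was not counted, nor was the share with an unadjusted p under 0.05. These counts and separations thus have no background to be read against.

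**Figure D4:**
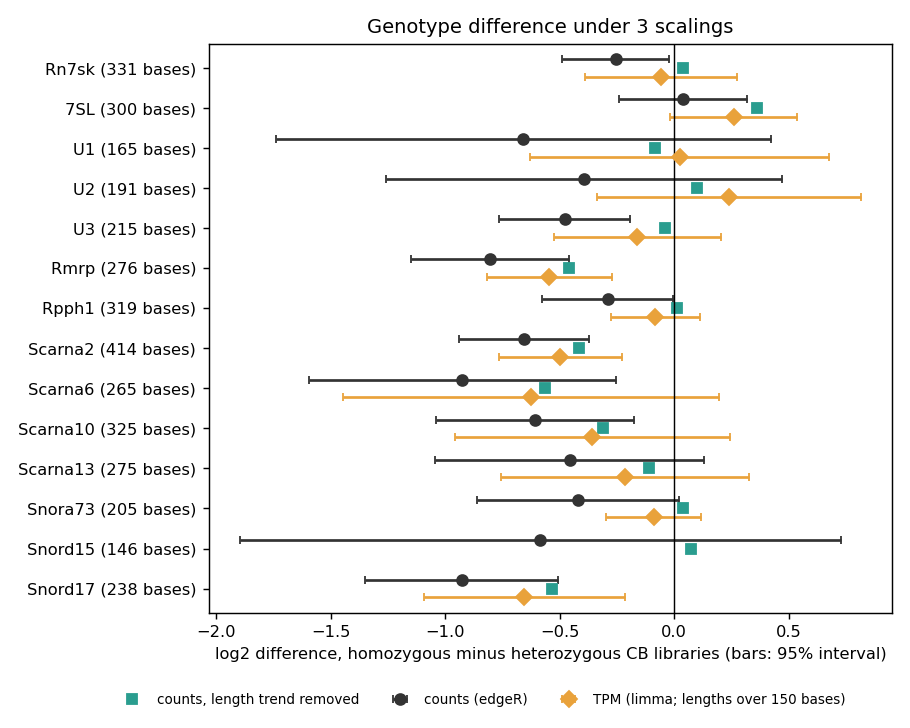
Log2 difference, homozygous minus heterozygous CB libraries (horizontal), of the 14 RNAs with lengths in bases, from counts in edgeR (black), from counts with the length trend removed (green) and from TPM in limma (orange, RNAs over 150 bases). Bars are 95% intervals of 1.96 times the SE to each side, which are narrower than the F test allows. For 7SK and Rpph1 the black bars leave out 0, although the unadjusted p was 0.0574 and 0.0723 (edgeR). Rmrp, Scarna2, Snord17, Scarna6 and Scarna10 are well left of 0 under all 3, Scarna6 and Scarna10 with TPM bars that reach past 0. Scarna13 and U3 are closer to it. 7SK, U1, U2, Rpph1, Snora73 and 7SL lie near or right of 0 in the green and orange values. Whether length is the reason was not tested.

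Leaving out heterozygous library 1, which stood apart, gave more calls. With copies joined, 5 of 14 RNAs were then called, all lower: Rmrp (log2 -0.57, adjusted p = 0.00384), Scarna10 (-0.86, 0.00106), Scarna6 (-1.23, 0.0119), Scarna2 (-0.63, 0.0145) and Snord17 (-0.99, 0.0162, edgeR). In the same fit 11.1% of 20019 genes were called and 3.98% were called lower. Without heterozygous library 3 Rmrp alone was called (log2 -0.98, adjusted p = 0.0394), and without any other single library none was.

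Genes of the proteins that bind, make or degrade these RNAs were looked at as lists. No gene passed the test in CB among 13 tested box C/D proteins (median log2 0.04), 11 box H/ACA and telomerase proteins (0.05), 36 genes of snRNA transcription and 3′ end formation (0.06), 15 proteins of the signal recognition particle, 7SK and Ro particles (0.03), 10 proteins of RNase P and RNase MRP (-0.01) or 21 genes of small RNA turnover (-0.04). At an unadjusted p under 0.05 there were 0, 0, 3, 1, 1 and 2 genes in these lists, and DESeq2 called only Zcchc7, in the turnover list. The share of all genes under that p in either direction was not counted. The proteins that RNase MRP and RNase P draw on had a median close to the -0.0048 of all genes. Of 38 tested genes of spliceosomal particles and their assembly (median -0.01), 1 was called: Prpf3, a protein of the U4/U6 particle, rose from 24.4, 27.2 and 27.5 CPM in heterozygous to 43.9, 39.9 and 40.3 CPM in homozygous CB libraries (log2 0.65, adjusted p = 0.0164). That call was lost in limma on TPM (adjusted p = 0.0513), without heterozygous library 2 (0.0631) or 3 (0.0639) and without homozygous library 1 (0.142), 2 (0.0898) or 3 (0.0842), with log2 differences of 0.61 to 0.75. Prpf3 was also higher in homozygous round spermatids, at 25.9 and 27.3 against 10.2 and 11.1 CPM in heterozygous and 8.28 and 10.4 CPM in WT libraries (adjusted p = 0.0287 and 0.0154), comparisons that share the homozygous libraries. Against heterozygous libraries the call was lost without heterozygous library 1 (adjusted p = 0.383) or 2 (0.365) or homozygous library 1 (0.342) or 2 (0.319), and against WT without heterozygous library 1 (0.0837) or 2 (0.0851), which share in the estimate of spread, or homozygous library 1 (0.202) or 2 (0.209). Some markers of other cells also moved between homozygous and WT round spermatid libraries. The Sertoli genes Clu and Aard, 2 of 7 tested, were called lower (log2 -0.84 and -1.44). Called higher (0.96 to 1.72) were Insl3 (1 of 4 Leydig genes), Dcn and Acta2 (2 of 5 peritubular and vascular genes). So were Cd74 and Lyz2 (2 of 6 immune genes). Genes not called also went against these directions, among them Trf of Sertoli cells (1.39), Cyp17a1 of Leydig cells (-0.34) and Col1a1 of peritubular cells (-0.53). The part of these markers in the Prpf3 difference was not tested. DESeq2 called Gemin4 and Lsm2 of the spliceosomal list besides Prpf3 in CB.

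**Figure D5:**
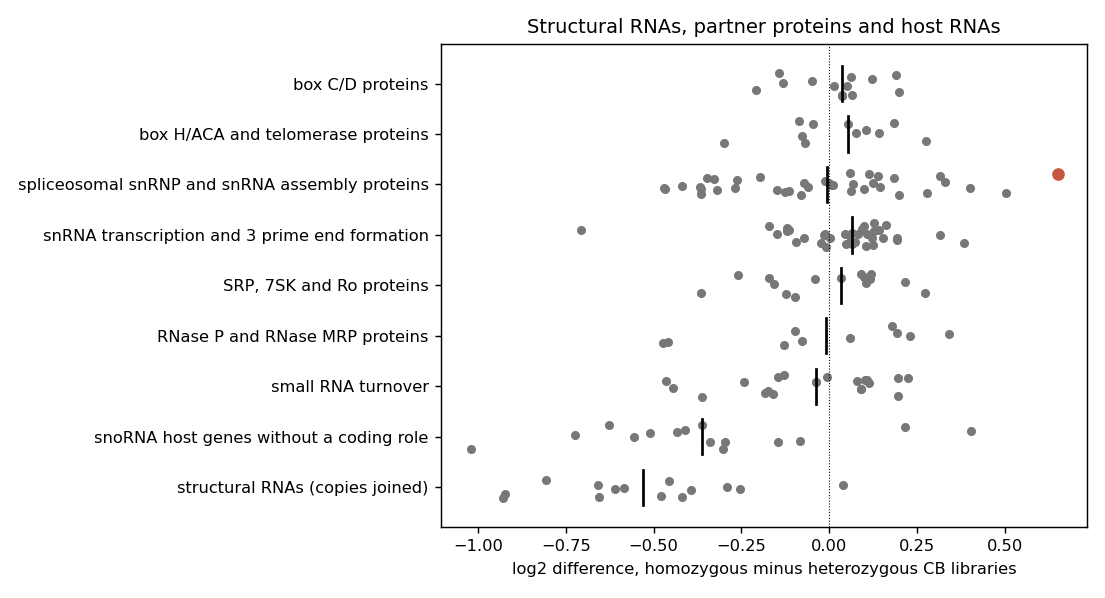
Log2 difference, homozygous minus heterozygous CB libraries (horizontal), of every tested gene of the 8 lists and of the 14 structural RNAs with copies joined (rows). Vertical bars are medians and the red point is Prpf3, the one gene called; vertical scatter within a row has no meaning. The protein lists centre near 0, while the host RNAs and the structural RNAs centre below it.

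Host transcripts gave another view of the guide RNAs. The 15 tested host RNAs without a coding role, spliced transcripts that carry snoRNAs in introns, had a median log2 difference of -0.36 in CB and none was called by edgeR or DESeq2 (1 had an unadjusted p under 0.05). In round spermatids the medians over 13 tested were -0.42 for homozygous against heterozygous, -0.56 for homozygous against WT and -0.48 for heterozygous against WT libraries, comparisons that share libraries, and none was called (0, 7 and 4 with an unadjusted p under 0.05 in edgeR). The share of all round spermatid genes under that p was not counted, so these counts have no background to be read against. Snora73a and Snora73b lie in the span of Snhg3, at 3.35 ± 0.565 and 2.48 ± 0.637 CPM (SD, n = 3, log2 -0.43, adjusted p = 0.497). Snord17 lies in Snx5, a sorting nexin gene that was at 9.97 ± 0.941 and 9.26 ± 1.12 CPM (log2 -0.11, adjusted p = 0.814). Scarna10 lies in the condensin gene Ncapd2, at 149 ± 10.1 and 165 ± 8.35 CPM (log2 0.15, adjusted p = 0.558), and Scarna6 in the autophagy gene Atg16l1, at 8.68 ± 3.26 and 7.57 ± 0.519 CPM (log2 -0.20, adjusted p = 0.791). The means of Ncapd2 and Scarna10 thus differed in opposite directions, though neither passed the test. The tested spans that hold members were those of Snhg3, Rpl32, Rps3, Snhg1, Snx5, Atg16l1, Ncapd2 and Tex14. Rpl32, which spans Snora7a, and Snhg1, which spans Snord22, were lower in mean (log2 -0.58 and -0.30, adjusted p = 0.264 and 0.712). Of these spans 2 were called, both higher, where 1.72% of all genes were called. Tex14, a gene of the bridges between germ cells, covers Rnu1a1 and the Rnu3b copies on chromosome 11. It went from 130 ± 4.31 to 194 ± 5.39 CPM (log2 0.58, adjusted p = 0.013). The ribosomal protein gene Rps3, which holds Snord15a and Snord15b, went from 15.8 ± 2.18 to 26.6 ± 3 CPM (log2 0.76, adjusted p = 0.0291). Both calls were kept without heterozygous library 1 and lost without any other single library: for Tex14 without heterozygous library 2 (adjusted p = 0.0655) or 3 (0.0543) or homozygous library 1 (0.133), 2 (0.0887) or 3 (0.0832), and for Rps3 likewise (0.0762, 0.0736, 0.147, 0.0887 and 0.154). The Rps3 call was also lost in limma on TPM (0.0564), and both with all 12 libraries in the fit (0.0766 and 0.102). The strand of members within these spans was not checked, and reads of Rps3 may be shared with processed copies elsewhere.

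In round spermatid RNA the same genes had almost no counts. All 37 together had 11 counts in 115.7 M over the 6 libraries: 8 in WT library 1, 1 in WT library 2, 2 in heterozygous library 2 and 0 in the others. Of these, 5 were on Rn7sk and the rest on Rn7s1 and Rn7s2, and 34 genes had none, which allows up to 0.0259 CPM each. No member passed the filter in round spermatids, where 1.73% of 17809 genes were called between homozygous and heterozygous libraries, 2.86% between homozygous and WT and 0% between heterozygous and WT. Genes of up to 500 bases outside the set took 0.416 to 1.53% of round spermatid counts, against 0.146 to 0.226% of CB counts. The gene tables differ too, with 55364 genes for round spermatids and 55401 for CB. Mitochondrially encoded genes took 0% of round spermatid counts and 0.191 to 0.61% of CB counts. Mean fragment length in round spermatids was 259 bases in WT library 1 and 315 to 320 in the other libraries. Kit, input, gene tables, fragment length and the cells used all differ between the 2 kinds of library. Their parts in this contrast cannot be told apart. A difference of genotype effect between CB and round spermatid RNA was fitted for 30 members and called for none (0.209% of 22002 genes were). None had an unadjusted p under 0.05, the lowest adjusted p was 0.743 and DESeq2 called none, but with round spermatid counts at or near 0 this fit carries little information on these RNAs.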

How the data were processed

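The authors deposited 1 gene table per RNA library with expected counts, TPM, effective lengths and FPKM, per the file headers. Expected counts are estimated reads that need not be whole, and were rounded here. The deposited TPM divide by an effective length, were used as deposited, and keep no depth. The layout is that of RSEM; for the aligner, the quantifier and the handling of reads that match several copies, no name or setting is given in the sources used here. The submitters' processing notes name Trim Galore and mm10 with no version.

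The quasi-likelihood test of edgeR 4.0.16 (R 4.3.3) was run after filterByExpr by group and TMM scaling, on the 6 CB libraries, on the 6 round spermatid libraries, and on all 12 for the difference of genotype effects. P-values were adjusted over all genes tested (Benjamini-Hochberg, threshold 0.05), and adjusted p-values are from edgeR unless DESeq2 1.42.0 or limma 3.58.1 is named. The fits were checked on simulated counts. Levels are CPM on the TMM scale, and SE is the log2 difference over the root of F. The 95% intervals are 1.96 times the SE to each side. With so few libraries they are narrower than the test allows. A count of 0 was read as up to 3 counts, which covers counting error only.

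The members and gene lists were chosen with earlier results of these data known. Named genes were members called in any contrast, tested members that are no guide RNA, the 5 highest and 3 most changed members of each guide class, and list genes called in CB. Guide RNAs of low count and genes called by DESeq2 alone were named as well, after their values were seen, and called markers are named where they move with a result. Positions and host spans come from RefSeq (GRCm38.p6), matched by symbol for all 37 members. Host genes were to lie on the same strand, but the table holds no strand, so any spanning gene was taken. The piRNA cluster and isoform tables were not used here.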

Additional observations from a re-analysis of the deposited data

How the results depend on the processing

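The number of members called between homozygous and heterozygous CB libraries, 1 of 25, kept its value with DESeq2 size factors and changed under most other settings. It was 2 with a minimum of 10 counts in every library of a group (1.93% of all genes called), 2 with scaling on long genes (1.76%) and 3 with DESeq2 (3.09%), against 1.72% in the reported fit. It was 0 with all 12 libraries in the fit (0.809%), with the length trend removed (1.51%) and, in alternatives chosen after seeing the data, with copies joined (1.72%), with fragment length as a covariate (0.967%) and in limma on TPM (1.38%). Without a filter 8 of 37 were called, and these included the 2 IDs of Rnu3a in opposite directions (log2 -1.94 and 3.18), with 2.2% of all genes called. Leaving out single libraries gave 0 to 5 members called, 5 without heterozygous library 1 (11% of all genes called) and 1, the 214-base Rnu3a ID, without homozygous library 1 (0.256%); it was 0 without the others, where 0.282 to 0.65% of genes were called. The median log2 difference of members, -0.52, was -0.0587 with the length trend removed, -0.235 in limma on TPM, and from -0.74 to -0.405 with single libraries left out. The log2 ratio of the share of counts on members, -0.222, was -0.0505 as a share of TPM. With copies joined, 0 to 5 of the RNAs were called with single libraries left out.

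Same-numbered CB libraries did not deviate together (correlations of deviations -0.00336, -0.2 and -0.144), and no library correlated best with its own number. With the replicate number as a block, 0 members were called (163 genes in all, against 332) and, with copies joined, 1 RNA was (Rmrp, adjusted p = 0.0384). The block also ended the calls of Prpf3 in CB (0.0693) and against heterozygous round spermatids (0.0641; 0.0365 against WT), Tex14 (0.0704) and Rps3 (0.0583).

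Of 356 comparisons of single genes with an alternative, 285 kept direction and side of the threshold, 42 lost a call, 15 gained one and 14 reversed. With the length trend removed, Rn7sk was at 0.0429, Snora73b at 0.103, Rnu2-10 at 0.126, Rpph1 at 0.0181 and the 215-base Rnu3b copies at 0.00536. Rnu2-10 was at 0.0931 with the fragment length covariate, and in limma on TPM it was at 0.241 and Rnu1b1 and Rnu1b2 at 0.0405. With single libraries left out, Rnu2-10 ranged from -0.728 to 0.508 and Rnu1b1 and Rnu1b2 from -1.02 to 0.354, both positive without heterozygous library 1. The 215-base Rnu3b copies ranged from -1.08 to 0.1, positive without heterozygous library 2. Rn7s1 and Rn7s2 ranged from -0.0847 to 0.208, at -0.014 and -0.0847 without heterozygous libraries 2 and 3 and at -0.0102 without homozygous library 2. The cause of these changes was not tested. No member passed the filter in round spermatids, so the alternatives there gave no value; without a filter 3 members were tested and 0 called.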

Other observations

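Outside the symbol rule, some other RNAs without a usual coding role were looked at, chosen after their values were seen. The nuclear RNA Neat1, the scaffold of paraspeckles, was at 103, 110 and 104 CPM in heterozygous CB libraries 1 to 3 and 86.6, 80.7 and 87.2 CPM in homozygous ones, without overlap (log2 -0.32, SE 0.09, adjusted p = 0.139, edgeR). Malat1, another abundant nuclear RNA, was at 3637, 1930 and 2181 CPM against 2519, 2573 and 2214 CPM, highest in heterozygous library 1 as U1 and U2 were (log2 -0.08, adjusted p = 0.905).

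Lars2, the gene of mitochondrial leucyl-tRNA synthetase, held 7843, 11490 and 11090 CPM in heterozygous and 5276, 5396 and 5527 CPM in homozygous CB libraries, each more than 7SK (log2 -0.91, adjusted p = 0.0277, edgeR). Mir6236 was at 1.15, 1.81 and 1.26 CPM against 0.546, 0.315 and 0.547 CPM (log2 -1.56, adjusted p = 0.0819, edgeR). The reads behind these values were not examined here.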
